A study of Mus musculus with 18 samples.

Results

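The genes described here encode the subunits of oxidative phosphorylation, the chain of 5 protein complexes in the inner mitochondrial membrane, and were taken by gene symbol as all symbols beginning with Nduf, Uqcr, Cox4 to Cox8 or Atp5 and the 4 Sdh genes. This gave 82 of the 11738 gene symbols in the 3 tables of hippocampal read counts analysed. They comprised 78 of 10541 genes in the table of the microRNA deletion, 77 of 10799 in that of the miR-132 transgene and 47 of 4618 in that of the miR-212 transgene, and 44 were in all tables. In the deletion table, 70 of the 78 members were subunits (34 of complex I, 4 of complex II, 8 of complex III, 10 of complex IV and 14 of complex V), 4 were Ndufaf genes, which encode assembly factors of complex I, and 4 match by symbol but are counted in no complex (Cox4nb, Atp5s, Atp5sl and Cox7a2l). The miR-132 table held the same classes with 13 members of complex V, and the miR-212 table held subunits only (18, 4, 7, 8 and 10 of complexes I to V). The symbol Uqcr of the miR-212 table is a synonym of Uqcr11 in RefSeq, so that these are 1 gene. Subunits encoded in the mitochondrial genome are outside the rule. So are nuclear genes whose symbols it does not match, such as Cyc1 (cytochrome c1 of complex III) and Usmg5 (of ATP synthase), which the sums of complexes leave out.

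All mice were C57BL/6 and the tissue was whole hippocampus. CaMKII-Cre::miR-132/212f/f mice (called deletion mice) carry floxed Mir132 and Mir212 that are removed where Cre is driven by the CaMKII promoter, which acts in excitatory forebrain neurons, so other hippocampal cells keep both genes. In tTA::miR132 and tTA::miR212 mice the tetracycline transactivator drives a transgene for the named microRNA, and the promoter behind tTA is not given in the sources used here. Each was compared with its own nontransgenic controls, which lack Cre or tTA as well as the altered microRNA, so that driver and microRNA cannot be told apart. Deletion mice and tTA::miR132 mice had 2 libraries each against 2 of their controls, and tTA::miR212 mice had 3 against 3. A further library of each group with 2 is not analysed here. A replicate is a pool of animals (6 animals and 3 pools a group, per the series design text), and the labels give no sex or age. A library is called by the number in its column name, which could be tied to no single labelled sample.

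Oxidative phosphorylation makes most of the ATP of a neuron. Complex I (NADH dehydrogenase) and complex II (succinate dehydrogenase, also an enzyme of the citric acid cycle) pass electrons to complex III (the cytochrome bc1 complex), and cytochrome c carries them on to complex IV (cytochrome c oxidase), which reduces oxygen. Complex V (ATP synthase) uses the proton gradient that complexes I, III and IV build. Apart from the few subunits made inside mitochondria, the subunits are encoded in the nucleus, and their transcripts are measured here in bulk hippocampal RNA, where fewer cells of a type and less RNA per cell cannot be told apart.

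MiR-132 and miR-212 come from neighbouring genes and share a seed, the bases 2 to 8 that pair with target messages. The mature sequences from RefSeq (build GRCm38.p6, chromosome 11) are shown with the seed in capitals, because the seed decides which subunit messages could pair with either microRNA.
mmu-miR-132-3p: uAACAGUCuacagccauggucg
mmu-miR-212-3p: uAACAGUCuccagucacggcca
The match to this seed, GACTGTT, was searched on the sense strand of the 3′ untranslated regions of GENCODE vM1 (NCBIM37, the same assembly as mm9). It was found in 2 of 78 members of the deletion table (2.56%), against 13.4% of all genes of that table with an annotated region. The members' regions were short, with a median of 217 bases against 1310 bases for all genes. Per kilobase of searched sequence there were 0.0454 matches in members and 0.0889 in all genes. In the tTA::miR212 table, 1 of 46 members with an annotated region held a match (2.17%), against 15.8% of all genes. The 2 matches, in Cox6c of complex IV and Ndufa12 of complex I, are shown with 10 bases on each side and the match in capitals, since they are the only members that hold one.
Cox6c, chr15:35855653-35855659 minus strand, NCBIM37: gggcaaagtaGACTGTTaactttagct
Ndufa12, chr10:93683617-93683623 plus strand, NCBIM37: ccgcagtgaaGACTGTTcctgcacttc
The Cox6c match lies in a long GENCODE transcript and beyond the RefSeq gene counted in the deletion and tTA::miR132 tables, which ends at 35861730 (mm9). It is followed by an A and so also holds the shorter motif ACTGTTA, which pairs with bases 2 to 7. That motif without the full match was found in Ndufb2, Ndufc2, Uqcrc2 and Uqcrfs1.

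Cox6c, which encodes a small structural subunit of cytochrome c oxidase, had 423 and 249 CPM in deletion mice, against 279 and 399 CPM in controls. It had 407 and 254 CPM in tTA::miR132 mice, against 289 and 310.4 CPM in controls. It had 95.8, 88.7 and 64.2 CPM in tTA::miR212 mice, against 91.9, 91.6 and 109.8 CPM in controls. In each comparison the groups overlapped, and the library of tTA::miR212 mice with the least Cox6c was library 3. The edgeR log2 fold changes were 0.02 in deletion mice, 0.10 in tTA::miR132 mice and -0.25 in tTA::miR212 mice, the last with an unadjusted p of 0.0996. Without library 3 of tTA::miR212 mice that value was -0.10. In the tTA::miR212 table the Cox6c transcript overlaps Vps13b on the other strand, and the counting is not stated to use strand, so reads of the 2 genes cannot be told apart. Ndufa12, an accessory subunit of complex I, had 67.0 and 20.1 CPM in deletion mice, against 52.1 and 27.2 CPM in controls. It had 49.1 and 37.3 CPM in tTA::miR132 mice, against 35.8 and 51.1 CPM in controls, and its groups overlapped in both comparisons (log2 fold changes 0.18 and -0.05, SE 0.77 and 0.52).

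Library totals over the listed genes ranged from 8190899 to 9702801 counts for the deletion and its controls. They were 8301385 to 14772907 for tTA::miR132 with its controls, and 1299369 to 1544923 for tTA::miR212 with its own, with 1 transcript row kept for each gene. Values are CPM, counts scaled to a total of 1000000 per library, and all 78, 77 and 47 members entered the tests. The coefficient of variation between replicates estimated by edgeR was 74.2% in the deletion table, 60.7% in the tTA::miR132 table and 8.58% in the tTA::miR212 table. Library 1 of deletion mice listed 9.93% of all genes at 0, against at most 1.14% in the other libraries of its table. Summed markers of choroid plexus epithelium, a cell layer next to the hippocampus, were 966 and 2526 CPM in deletion mice, against 5510 and 6412 CPM in controls, with 10 of 10 markers below 0 on the log2 scale and 5 of them (Aqp1, Clic6, Folr1, Kcne2 and Otx2) at 0 in some library. The 10 markers measured in the miR-132 table summed to 5020.3 and 3679 CPM in tTA::miR132 mice, against 6531 and 5022 CPM in controls, and the 3 measured in the miR-212 table to 1420.4, 219 and 1296 CPM in tTA::miR212 mice, against 1412, 1227 and 534 CPM in controls. Summed markers of neurons were 7549 and 7550 CPM in deletion mice, against 7416 and 7301 CPM in controls. In deletion mice the sums of 3 further lists were also above both controls: microglia (454 and 517 CPM, against 380 and 409 CPM in controls), endothelial and mural cells (165 and 177 CPM, against 137 and 111 CPM in controls) and hippocampal excitatory neurons (2563 and 2719 CPM, against 2272 and 2520 CPM in controls). Singly, 3 of 7, 2 of 6 and 1 of 7 markers of these lists were higher without overlap, beside 14.3% of all genes. In each list 2 markers had a log2 fold change below 0. Oligodendrocyte markers summed to 4570 and 4416 CPM in tTA::miR132 mice, against 3611 and 3825 CPM in controls. Most of that sum was Mbp (3700 and 3478 CPM, against 2922 and 2970 CPM in controls). Of 6 markers, 4 were higher without overlap, Mog was lower without overlap and Mobp overlapped. Of all genes in that table, 18.8% were higher and 14.3% lower without overlap. Microglia markers summed to 366, 311 and 319 CPM in tTA::miR212 mice, against 282, 299 and 307 CPM in controls. Of 7 astrocyte markers in tTA::miR212 mice, 3 (Aqp4, Gfap and Gja1) were higher without overlap at an unadjusted p under 0.05 from edgeR. Aldoc was lower without overlap, and the other astrocyte markers overlapped. Mobp of oligodendrocytes and Dsp of hippocampal excitatory neurons were lower there without overlap, also at an unadjusted p under 0.05. Sst of interneurons (log2 fold change -0.28) and Cx3cr1 of microglia (0.31) had such a p with overlap. Of all genes in that table, 6.47% were higher and 4.96% lower without overlap. All other sums of marker lists overlapped between groups. The part of these differences in the values of the members was not tested. Neither microRNA gene is listed in the tables, so the labels could not be checked on the altered genes themselves.

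No member was called in any comparison by edgeR's quasi-likelihood test with Benjamini-Hochberg adjustment at 0.05, and DESeq2 and limma-voom called none either. Among all genes edgeR also called 0 of 10487, 0 of 10734 and 0 of 4618 (0% each). DESeq2 called 5, 39 and 0 genes and limma-voom called 0, 2 and 0. At an unadjusted p under 0.05 there were 0 members in deletion mice (0.839% of all genes), 1 in tTA::miR132 mice (Ndufs6; 2.82% of all genes) and 1 in tTA::miR212 mice (Atp5c1; 5.63% of all genes). The adjusted p-values from edgeR were 0.999 for every member in deletion mice, at least 0.997 in tTA::miR132 mice and at least 0.876 in tTA::miR212 mice. Library 1 of deletion mice, which listed 9.93% of all genes at 0, is the only deletion library left when library 2 is dropped. Of the libraries left out singly in that table, only library 2 of deletion mice changed the count of 0 members. Without it, and with the lone library assumed to vary like the controls, edgeR called 30 members (24 higher and 6 lower, 38.5% of members) and 4527 of all genes (43.0%). Without library 1 of deletion mice it called 0 members and 8 genes. Leaving out any library of tTA::miR132 mice or their controls left 0 members called, with 111 genes called without control library 1. Leaving out library 1 of tTA::miR212 mice gave 0 members and 18 genes.

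Counted by groups that did not overlap, 7 members were higher and 12 lower in deletion mice, which is 8.97% and 15.4% of members, against 14.3% and 18.0% of all genes. With the miR-132 transgene 17 members were higher and 7 lower (22.1% and 9.09% of members), against 18.8% and 14.3% of all genes. In tTA::miR212 mice 2 members were higher and 0 lower (4.26% and 0%), against 6.47% and 4.96% of all genes. Counts this near the background, or under it, are no result about the members. Log2 fold changes were above 0 for 44 of 78 members in deletion mice, 45 of 77 in tTA::miR132 mice and 18 of 47 in tTA::miR212 mice, against 47.9%, 49.9% and 51.0% of all genes. The median log2 fold change of members was 0.05 in deletion mice, 0.10 in tTA::miR132 mice and -0.03 in tTA::miR212 mice, against -0.03, -0.00 and 0.00 for all genes. Leaving out single libraries moved it between -0.28 and 0.27 in deletion mice and between -0.03 and 0.18 in tTA::miR132 mice, so its sign there depended on single libraries. The median size of a member's change without regard to sign was 0.30, 0.23 and 0.08, against 0.42, 0.37 and 0.08 for all genes. The median SE of a member's log2 fold change was 0.40 in deletion mice, 0.32 in tTA::miR132 mice and 0.12 in tTA::miR212 mice, which is the precision behind these values.

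**Figure D1:**
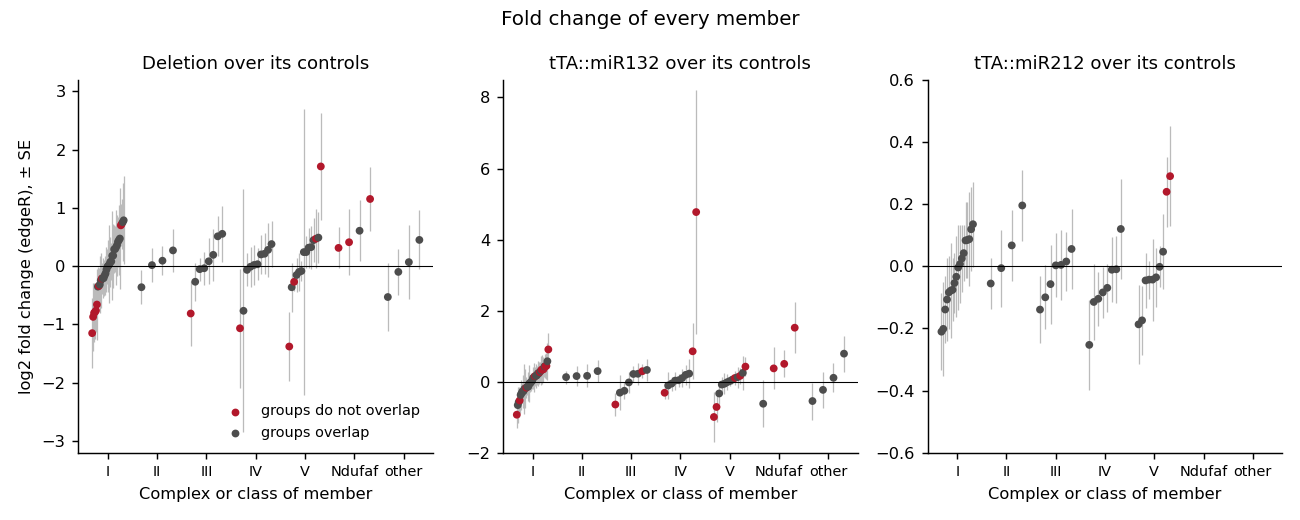
edgeR log2 fold change of every member over its controls, with bars of 1 SE, by complex, for the 4 Ndufaf genes and for the 4 other symbols; each point is a gene and the vertical axes differ between panels. Red points, whose libraries do not overlap between groups, lie on both sides of 0 in deletion and tTA::miR132 mice, and in tTA::miR212 mice the changes stay between -0.25 and 0.29.

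The complexes were then summed over their subunits in each library. Complex I summed to 5196 and 3795 CPM in deletion mice, against 5079.5 and 3961 CPM in controls, and library 1 lay above library 2 in either group. It summed to 4764 and 4148 CPM in tTA::miR132 mice, against 4349 and 4041 CPM in controls. It summed to 1884, 1998 and 1834 CPM in tTA::miR212 mice, against 1902, 1939 and 1921 CPM in controls. The sums overlapped between groups in each comparison, with ratios of group means of 0.994, 1.06 and 0.992. Of the 34 subunits in deletion mice, 2 were higher and 8 lower without overlap, beside 14.3% and 18.0% of all genes. These counts are not read as a result about the complex. Of the 34, 17 had a log2 fold change above 0 and 17 below, and the median was 0.00.

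The complex I subunit with the smallest p in deletion mice was Ndufs8, a core subunit that holds iron-sulfur clusters, with 78.9 and 74.8 CPM in deletion mice, against 166 and 99.0 CPM in controls. Both deletion libraries were below both control libraries, by a log2 fold change of -0.76 (SE 0.37, unadjusted p 0.0882). Ndufa13, an accessory subunit also known as GRIM-19, had 322 and 189 CPM in deletion mice, against 137 and 184 CPM in controls, where library 2 of deletion mice barely passed control library 2 (log2 fold change 0.70, SE 0.36). Ndufa4, which had the most counts of the complex, had 524 and 244 CPM in deletion mice, against 326 and 317 CPM in controls, so library 1 of deletion mice stood above the other 3. Its symbol places it in complex I here, although its protein was later assigned to complex IV. The other members lower without overlap were Ndufa3, Ndufa6, Ndufb2, Ndufb5, Ndufb7, Ndufs6 and Ndufv1, with log2 fold changes between -1.15 (Ndufb7) and -0.21 (Ndufv1), and Ndufs4 was higher (0.73). Ndufs4 is an accessory subunit whose loss in mice causes an encephalopathy like Leigh syndrome.

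In tTA::miR132 mice the complex I member with the smallest p was Ndufs6, an accessory subunit of the part of the enzyme that oxidises NADH. It is on chromosome 13 from 73457323 to 73465930 (mm9). Ndufs6 had 59.2 and 54.8 CPM in tTA::miR132 mice, against 101 and 110.0 CPM in controls. The 2 transgenic libraries were close to each other and both were below both controls, with a log2 fold change of -0.93 (SE 0.37, unadjusted p 0.0273), and the adjusted p from edgeR was 0.997. Leaving out either transgenic library ended the unadjusted p under 0.05 (0.117 and 0.169), while leaving out either control did not. In the deletion table, with other controls, it had 39.2 and 34.1 CPM in deletion mice, against 68.8 and 59.9 CPM in controls, again without overlap (log2 fold change -0.79, SE 0.47, unadjusted p 0.147). Loss of both microRNAs and gain of miR-132 therefore stood on the same side of their controls for this gene, and neither difference passed the adjusted test. Ndufa5, an accessory subunit, had 78.5 and 78.3 CPM in tTA::miR132 mice, against 54.1 and 27.5 CPM in controls, with both transgenic libraries higher (log2 fold change 0.91, unadjusted p 0.08). Ndufa4, with the most counts here too, had 418 and 235 CPM in tTA::miR132 mice, against 347 and 292 CPM in controls and overlapped.

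In tTA::miR212 mice all 18 measured complex I subunits overlapped with controls. The smallest p below 0 was that of Ndufb8, an accessory subunit of the membrane arm, with 92.8, 109 and 89.6 CPM in tTA::miR212 mice, against 97.1, 118 and 120.4 CPM in controls. Library 3 of tTA::miR212 mice was lowest, and library 1 of the controls fell among the transgenic libraries (log2 fold change -0.21, SE 0.12). Ndufa4 had 117, 97.1 and 93.0 CPM in tTA::miR212 mice, against 75.0, 102 and 100 CPM in controls (log2 fold change 0.14, SE 0.14). Ndufv1, the core subunit that binds NADH and had the most counts of the complex in this table, had 189, 195 and 181 CPM in tTA::miR212 mice, against 177, 188 and 181 CPM in controls, and these 6 values lay within a narrow band (log2 fold change 0.04, SE 0.09).

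**Figure D2:**
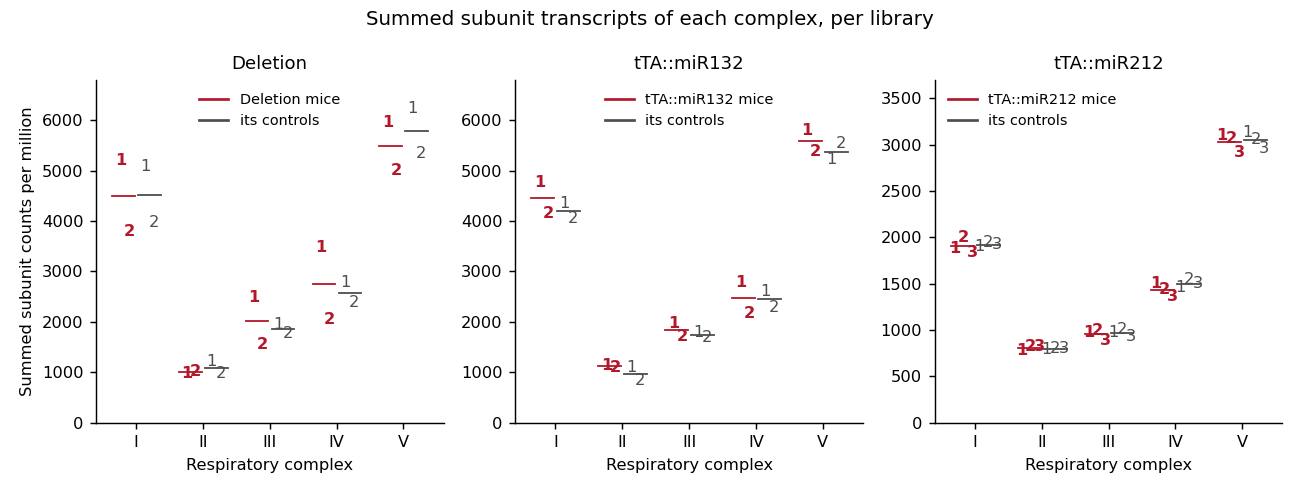
Summed CPM of the subunits of complexes I to V in each library, with digits for library numbers and bars for group means; deletion or transgenic mice are in red on the left of each pair and controls in grey on the right. In the deletion panel library 1 exceeds library 2 in complexes I, III, IV and V of both groups, for complex IV with 3467 against 2042 CPM in deletion mice, and in the tTA::miR212 panel the libraries lie close together.

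Complex II has 4 subunits, all encoded in the nucleus. Its sum was 985 and 1015 CPM in deletion mice, against 1211 and 969 CPM in controls. It was 1132 and 1100.4 CPM in tTA::miR132 mice, against 1098 and 844 CPM in controls, where both transgenic libraries were above both controls. Transgenic library 2 barely passed control library 1 on these raw totals. The TMM scaling factors of those libraries, 1.022 and 1.003, differ by more than this gap, so the separation depends on scaling. The sum was 784, 818 and 825 CPM in tTA::miR212 mice, against 793, 804 and 804 CPM in controls. The ratios of group means were 0.918, 1.15 and 1.01, and the one of tTA::miR132 mice was 1.02 without control library 2. Sdha, the flavoprotein that oxidises succinate and the most counted subunit in each table, had 335 and 546 CPM in deletion mice, against 661 and 482 CPM in controls. It had 478 and 628 CPM in tTA::miR132 mice, against 509 and 473 CPM in controls, and 415, 476 and 502 CPM in tTA::miR212 mice, against 493, 481 and 465 CPM in controls. Sdha overlapped throughout, with log2 fold changes of -0.36, 0.13 and -0.06 (SE 0.29, 0.18 and 0.08). Sdhb, the iron-sulfur subunit, had log2 fold changes of 0.09, 0.16 and -0.01, and its libraries overlapped in each table. The membrane anchors Sdhc and Sdhd overlapped as well. Sdhd, with the smallest p of the subunits above 0 for the deletion, had 286 and 160.0 CPM in deletion mice, against 218 and 161 CPM in controls (log2 fold change 0.27, SE 0.37). Sdhc was that subunit in both transgenic lines. It had 163 and 127 CPM in tTA::miR132 mice, against 133 and 96.5 CPM in controls (log2 fold change 0.30, SE 0.31), and 135, 141 and 122 CPM in tTA::miR212 mice, against 101, 117 and 127 CPM in controls (log2 fold change 0.20, SE 0.12, unadjusted p 0.108). For tTA::miR132 mice all 4 subunits were above 0, the largest change being that of Sdhc.

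Complex III summed to 2489.5 and 1551 CPM in deletion mice, against 1949 and 1768 CPM in controls, so that the deletion libraries lay on either side of both controls. The sum was 1976 and 1719 CPM in tTA::miR132 mice, against 1791 and 1694 CPM in controls. It was 978, 1000.05 and 886 CPM in tTA::miR212 mice, against 973, 1001 and 935 CPM in controls. The ratios of means were 1.09, 1.06 and 0.984, and leaving out library 1 of deletion mice gave 0.835. Uqcrc2, a core protein of the matrix side and the most counted subunit in the first 2 tables, had 666 and 353 CPM in deletion mice, against 357 and 375 CPM in controls. Library 1 of deletion mice alone exceeded the rest (log2 fold change 0.51, SE 0.35). In the miR-132 table Uqcrc2 had 391 and 336 CPM in tTA::miR132 mice, against 319 and 521 CPM in controls, and there a control library was highest. Uqcrb, a small subunit near the ubiquinone site, had 24.6 and 36.2 CPM in deletion mice, against 41.0 and 66.8 CPM in controls, without overlap (log2 fold change -0.81, SE 0.57). Uqcr11, a small accessory subunit, had 79.4 and 88.6 CPM in tTA::miR132 mice, against 113 and 141 CPM in controls, both below both controls (log2 fold change -0.64, SE 0.33, unadjusted p 0.0765). Uqcrc1, which encodes the other core protein, had 416 and 413 CPM in tTA::miR132 mice, against 357 and 300.3 CPM in controls, both above (log2 fold change 0.29, SE 0.19).

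All 7 complex III members overlapped in tTA::miR212 mice. Uqcrfs1, the Rieske iron-sulfur protein, had 131, 153 and 127 CPM in tTA::miR212 mice, against 154, 158 and 138 CPM in controls (log2 fold change -0.14, SE 0.11). Uqcrh, the hinge protein, was at 88.2, 84.1 and 69.6 CPM in tTA::miR212 mice, against 80.9, 74.7 and 75.0 CPM in controls (log2 fold change 0.06, SE 0.13). Uqcrc1, the most counted in this table, was at 252, 263 and 203 CPM in tTA::miR212 mice, against 243, 238 and 223 CPM in controls, and library 3 of tTA::miR212 mice was lowest. Uqcr, the gene lower in tTA::miR132 mice under its other symbol, had 97.4, 96.4 and 89.6 CPM in tTA::miR212 mice, against 93.4, 92.4 and 94.7 CPM in controls, and here the groups overlapped (log2 fold change 0.00, SE 0.11).

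Complex IV showed the widest gap between deletion libraries, with 3467 and 2042 CPM in deletion mice, against 2774 and 2376 CPM in controls. The sum was 2788 and 2164 CPM in tTA::miR132 mice, against 2602 and 2291 CPM in controls, and 1505, 1442 and 1358 CPM in tTA::miR212 mice, against 1456, 1543 and 1502 CPM in controls. The ratios of means were 1.07, 1.01 and 0.956, and the one of deletion mice was 0.793 without library 1 and 1.35 without library 2. Several subunits of this complex exist as pairs of isoforms. Cox4i1, the form found in most tissues, had 642 and 431 CPM in deletion mice, against 694 and 410.1 CPM in controls, which overlapped. It had 493 and 459 CPM in tTA::miR132 mice, against 561 and 586 CPM in controls, both below both controls (log2 fold change -0.31, SE 0.17, unadjusted p 0.0893). It had 455, 408 and 395 CPM in tTA::miR212 mice, against 416, 458 and 449.9 CPM in controls (log2 fold change -0.08, SE 0.08), with overlap.

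Cox6a1, the form of subunit VIa found outside muscle, had 996 and 448 CPM in deletion mice, against 559.5 and 580.0 CPM in controls (log2 fold change 0.38, SE 0.39), so again library 1 of deletion mice was alone above the controls. It had 649 and 503 CPM in tTA::miR132 mice, against 543 and 545 CPM in controls, and 209, 228 and 196 CPM in tTA::miR212 mice, against 227, 225 and 225 CPM in controls, both with overlap. Its heart and muscle form Cox6a2 was listed in the deletion table with 6.91 and 3.61 CPM in deletion mice, against 11.9 and 6.47 CPM in controls, between 35 and 112 reads a library, and overlapped. Cox7a1, likewise the heart and muscle form of its subunit, was the only member at 0 in any library, with 10.8 and 4.10 CPM in tTA::miR132 mice, against 0.505 and 0 CPM in controls. Both transgenic libraries were higher, with 159 and 36 reads against 5 and 0 in controls, and the fitted log2 fold change of 4.77 had an SE of 3.44 (unadjusted p 0.192). That fitted value depends on the prior count and is no bound. Cox7a2, the form of other tissues, had 211 and 147 CPM in tTA::miR132 mice, against 161 and 144 CPM in controls, with overlap. It overlapped in deletion mice (log2 fold change -0.06, SE 0.28) and in tTA::miR212 mice (-0.12, SE 0.12). Cox6b1 and Cox8a overlapped in each table, with log2 fold changes between -0.11 (Cox6b1, tTA::miR132) and 0.20 (Cox6b1, deletion). Cox7c, a small subunit, had 23.6 and 5.05 CPM in deletion mice, against 27.7 and 34.3 CPM in controls, lower without overlap. It had 39.6 and 18.7 CPM in tTA::miR132 mice, against 18.1 and 13.4 CPM in controls, higher without overlap. With SE of 1.02 and 0.79 neither change reached an unadjusted p of 0.05. Cox7b, on chromosome X and listed in the tTA::miR212 table, had 72.8, 58.3 and 67.6 CPM in tTA::miR212 mice, against 57.4, 64.6 and 59.1 CPM in controls (log2 fold change 0.12, SE 0.16).

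Complex V summed to 5959.5 and 5007 CPM in deletion mice, against 6234 and 5333 CPM in controls. It summed to 5794 and 5375 CPM in tTA::miR132 mice, against 5213 and 5533 CPM in controls, and 3095, 3062 and 2917 CPM in tTA::miR212 mice, against 3127, 3056 and 2957 CPM in controls. Its ratios of means were 0.948, 1.04 and 0.993, and the sums overlapped in each comparison. Atp5b, the catalytic beta subunit and the most counted member in every table, had 1693 and 1845 CPM in deletion mice, against 2125 and 1679.7 CPM in controls. It had 2088 and 1891 CPM in tTA::miR132 mice, against 1813 and 1902 CPM in controls, and 1092, 1131 and 1019 CPM in tTA::miR212 mice, against 1115, 1101 and 1101 CPM in controls. Its log2 fold changes of -0.08, 0.06 and -0.04 had the smallest SE of any member in the transgenic tables (0.12 and 0.06). Atp5b overlaps Baz2a in the tTA::miR212 table, Atp5d overlaps Dos, Atp5o overlaps Itsn1 and Cox4i1 overlaps Galnt2, so some of their reads there could belong to the neighbour.

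Atp5h, subunit d of the stator stalk, had the smallest p of all members for the deletion, with 23.2 and 29.1 CPM in deletion mice, against 95.5 and 42.2 CPM in controls. Both deletion libraries were below both controls, and control library 1 was far above control library 2 (log2 fold change -1.38, SE 0.60, unadjusted p 0.0615). Without control library 1 the log2 fold change was -0.68. In the miR-132 table Atp5h had 61.2 and 48.4 CPM in tTA::miR132 mice, against 53.6 and 36.4 CPM in controls, with overlap. Atp5a1, the alpha subunit, had 944 and 1012 CPM in deletion mice, against 1276 and 1117 CPM in controls, lower without overlap (log2 fold change -0.27, SE 0.16). The c subunit, which forms the rotor ring, is encoded by several genes for 1 mature protein. Of these Atp5g1 had 60.2 and 15.9 CPM in deletion mice, against 12.8 and 11.1 CPM in controls, and library 1 of deletion mice was far above the rest (log2 fold change 1.71, SE 0.93), with a value of 0.39 without that library. Atp5g1 was on the other side of its controls with the miR-132 transgene, lower without overlap, at 13.1 and 24.1 CPM in tTA::miR132 mice, against 31.2 and 40.2 CPM in controls (log2 fold change -0.995, SE 0.70). Atp5g3, with far more reads, had 1064 and 677 CPM in deletion mice, against 851 and 1125 CPM in controls. It had 1095 and 686 CPM in tTA::miR132 mice, against 826 and 1005 CPM in controls, and 192, 179 and 167 CPM in tTA::miR212 mice, against 187, 183 and 177 CPM in controls, with overlap each time. How the authors counted reads that match more than 1 of these genes is not given in the sources used here.

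Atp5k, subunit e of the membrane part, had 50.3 and 48.7 CPM in tTA::miR132 mice, against 66.4 and 90.7 CPM in controls, both below both controls (log2 fold change -0.71, SE 0.43). In the deletion table Atp5k had 67.0 and 44.7 CPM in deletion mice, against 38.0 and 44.3 CPM in controls, both above, where library 2 of deletion mice and control library 2 were nearly equal. Atp5j, coupling factor 6 of the stator, had 186 and 182 CPM in tTA::miR132 mice, against 146 and 121 CPM in controls, both above (log2 fold change 0.42, SE 0.27). It had 131, 124 and 107 CPM in tTA::miR212 mice, against 144, 133 and 128 CPM in controls, with overlap (log2 fold change -0.17, SE 0.11).

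Atp5c1, the gamma subunit that forms the central rotor shaft, was the only member with an unadjusted p under 0.05 in tTA::miR212 mice. Its counted transcript is on chromosome 2 from 9977643 to 10002137 (mm9). Atp5c1 had 107, 117 and 127 CPM in tTA::miR212 mice, against 93.4, 103 and 99.2 CPM in controls. All 3 transgenic libraries were above all 3 controls, with a log2 fold change of 0.24 (SE 0.11, unadjusted p 0.0482), and the adjusted p from edgeR was 0.876. The other member without overlap was Atp5j2, subunit f, with 64.4, 66.0 and 80.9 CPM in tTA::miR212 mice, against 55.9, 62.3 and 53.8 CPM in controls, where library 3 of tTA::miR212 mice was highest (log2 fold change 0.29, SE 0.16). Without that library the log2 fold changes were 0.17 for Atp5c1 and 0.17 for Atp5j2. Atp5c1 had 326 and 299 CPM in tTA::miR132 mice, against 288 and 277 CPM in controls, also without overlap (log2 fold change 0.10, SE 0.20), and 321 and 316 CPM in deletion mice, against 448 and 246 CPM in controls, with overlap. Atp5j2 in tTA::miR132 mice overlapped and had a log2 fold change below 0 (-0.33, SE 0.29).

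**Figure D3:**
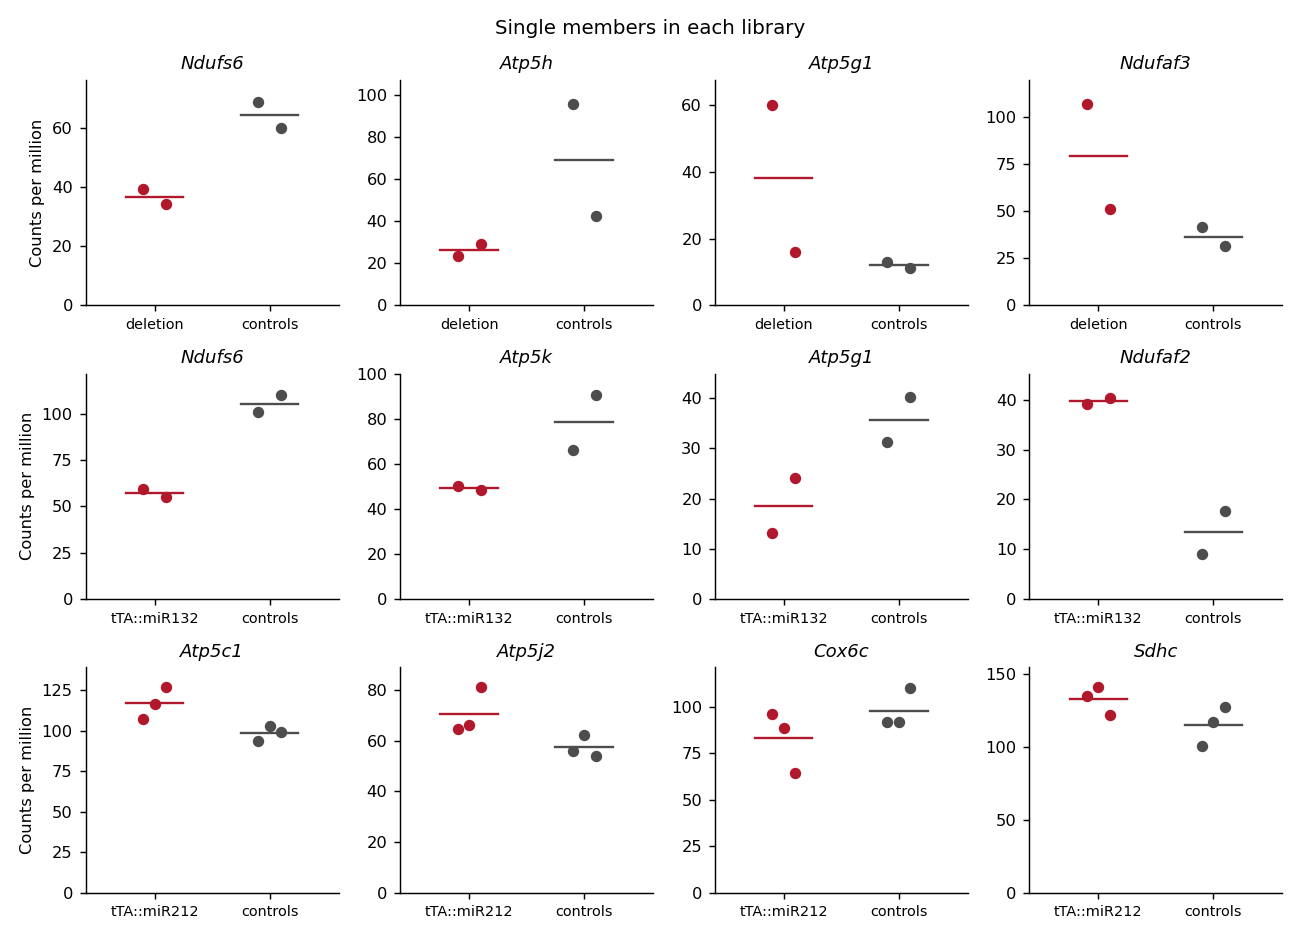
CPM of single members in each library (points) with group means (bars), deletion or transgenic mice in red on the left and controls in grey on the right; the upper row is the deletion table, the middle row tTA::miR132 and the lower row tTA::miR212, and each vertical axis starts at 0. Ndufs6 is lower in both upper rows, Atp5g1 is on opposite sides of its controls in them, and Atp5c1 and Atp5j2 are the 2 members without overlap in tTA::miR212 mice.

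The 4 Ndufaf members encode proteins that build complex I and are not part of the finished enzyme. Ndufaf3 had 107 and 51.1 CPM in deletion mice, against 41.5 and 31.6 CPM in controls, both above both controls (log2 fold change 1.15, SE 0.55, unadjusted p 0.0826). Its log2 fold change was 0.47 without library 1 of deletion mice and 1.62 without library 2, each with 1 deletion library left. Without library 2 edgeR also called 43.0% of all genes, so its call of Ndufaf3 there is not read as a result about this gene. Ndufaf2, whose protein binds a late assembly intermediate, had 39.2 and 40.4 CPM in tTA::miR132 mice, against 9.09 and 17.7 CPM in controls, both above (log2 fold change 1.52, SE 0.72, unadjusted p 0.0571). Ndufaf2, Ndufaf3 and Ndufaf4 were higher without overlap in deletion mice and in tTA::miR132 mice, and Ndufaf1 overlapped in both. Of all genes, 14.3% and 18.8% were higher without overlap in these comparisons, and 2.76% of the genes in both tables were higher in both. With only 4 such genes and none called, this is not read as a result about assembly factors. Summed over the 4 genes there were 322 and 219 CPM in deletion mice, against 181 and 182 CPM in controls, and 218 and 228 CPM in tTA::miR132 mice, against 143 and 186 CPM in controls. The 2 comparisons use separate controls. Of 76 members in both tables, 6 were without overlap on the same side (Ndufaf2, Ndufaf3, Ndufaf4 and Ndufs4 higher, Ndufa6 and Ndufs6 lower) and 4 on opposite sides (Atp5g1 and Atp5k higher in deletion mice, Cox7c and Ndufb5 lower). These are 7.89% and 5.26% of members, against 5.24% and 5.54% of the 9991 genes in both tables.

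The 4 members counted in no complex overlapped in the deletion and miR-132 tables, which list them. Cox7a2l, which encodes a factor of respiratory supercomplexes, had 147 and 45.8 CPM in deletion mice, against 121 and 68.9 CPM in controls. It had 113 and 85.7 CPM in tTA::miR132 mice, against 85.9 and 26.6 CPM in controls (log2 fold change 0.79, SE 0.51). Cox4nb, Atp5s and Atp5sl are synonyms of Emc8, Dmac2l and Dmac2 in RefSeq, and their log2 fold changes lay between -0.55 (Atp5s, tTA::miR132) and 0.45 (Atp5s, deletion).

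Set against the mean of the controls, the median member was 0.18 higher on the log2 scale in library 1 of deletion mice and -0.27 in library 2, while the medians of all genes were -0.07 and 0.00. Between these 2 libraries the median difference was 0.52, with 58 of 78 members (74.4%) higher in library 1, against 47.1% and a median of -0.07 for the 9335 genes listed above 0 in every library. More than 2-fold apart were 37.2% of members and 40.2% of all genes. All 10 complex IV subunits were higher in library 1 than in library 2, with a median of 0.82. The 2 control libraries differed in the same direction by a median of 0.28, with 56 of 78 members (71.8%) higher in control library 1, against 49.9% of all genes. More than 2-fold apart were 5.13% of members and 9.87% of all genes. In the tTA::miR132 table the medians between libraries of a group were 0.11 and 0.15. In the tTA::miR212 table the 6 such medians lay between -0.00 and 0.10, and no member differed 2-fold between libraries of a group.

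**Figure D4:**
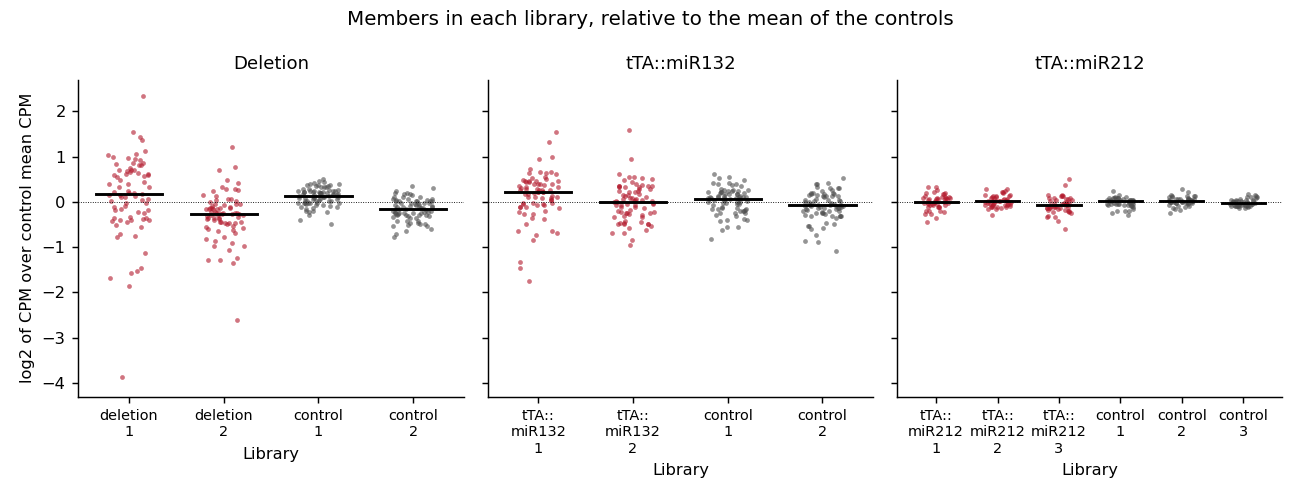
log2 of each member's CPM over the mean CPM of the controls, by library, for 78, 76 and 47 members (Cox7a1, at 0 in a control library, is left out of the middle panel); points are genes and black bars are medians, with deletion or transgenic libraries in red on the left and controls in grey on the right. The medians of deletion libraries 1 and 2 lie on opposite sides of 0, at 0.18 and -0.27, and the points of the tTA::miR212 table are the tightest.

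Beside these tests, the authors' deposited table of the deletion gave a q-value under 0.05 to 47 of 78 members (60.3%), against 54.6% of all tested genes. In the authors' deposited table of tTA::miR132 it was 46 of 77 members (59.7%), against 53.3% of all tested genes. Of these members, 10 in the authors' deposited table of the deletion and 16 in that of tTA::miR132 had groups that did not overlap, and the libraries of the other 37 and 30 overlapped between groups. Over all tested genes, whatever their q-value, 32.3% and 33.1% had groups without overlap. The share among all genes with such a q-value was not computed, so these counts are no result about the members. The authors' deposited table of tTA::miR212 gave such a q-value to 0 of 47 members and to 4 of 4618 genes (0.0866%).

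Levels can be compared between subunits only per length, and transcript lengths could be joined for the 47 members of the tTA::miR212 table (492 to 4435 bases). The highest levels per kilobase were those of Cox4i1, at 617 ± 47.0 CPM per kilobase in tTA::miR212 mice and 650 ± 33.1 in controls (SD, n = 3 each). Cox8a, a small structural subunit of complex IV, followed with 614 ± 30.9 in tTA::miR212 mice and 640 ± 21.1 in controls, and Atp5b with 564 ± 29.9 in tTA::miR212 mice and 577 ± 4.15 in controls. Cox4i1 and Cox8a did not differ beyond their spread. After them came Cox6a1, with 341 ± 26.4 in tTA::miR212 mice and 364 ± 2.28 in controls, and Atp5a1, with 334 ± 15.7 in tTA::miR212 mice and 332 ± 18.5 in controls. For complexes I to V the median subunit had 82.3, 87.5, 139, 206 and 133 CPM per kilobase in tTA::miR212 mice, against 88.1, 85.0, 133, 206 and 141 in controls. The lowest were Ndufb7, with 20.4 ± 3.76 in tTA::miR212 mice and 21.8 ± 0.666 in controls, Cox6c and Sdhc, whose kept transcripts are the longest of the members, so the level per length depends on the transcript model that was kept.

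**Figure D5:**
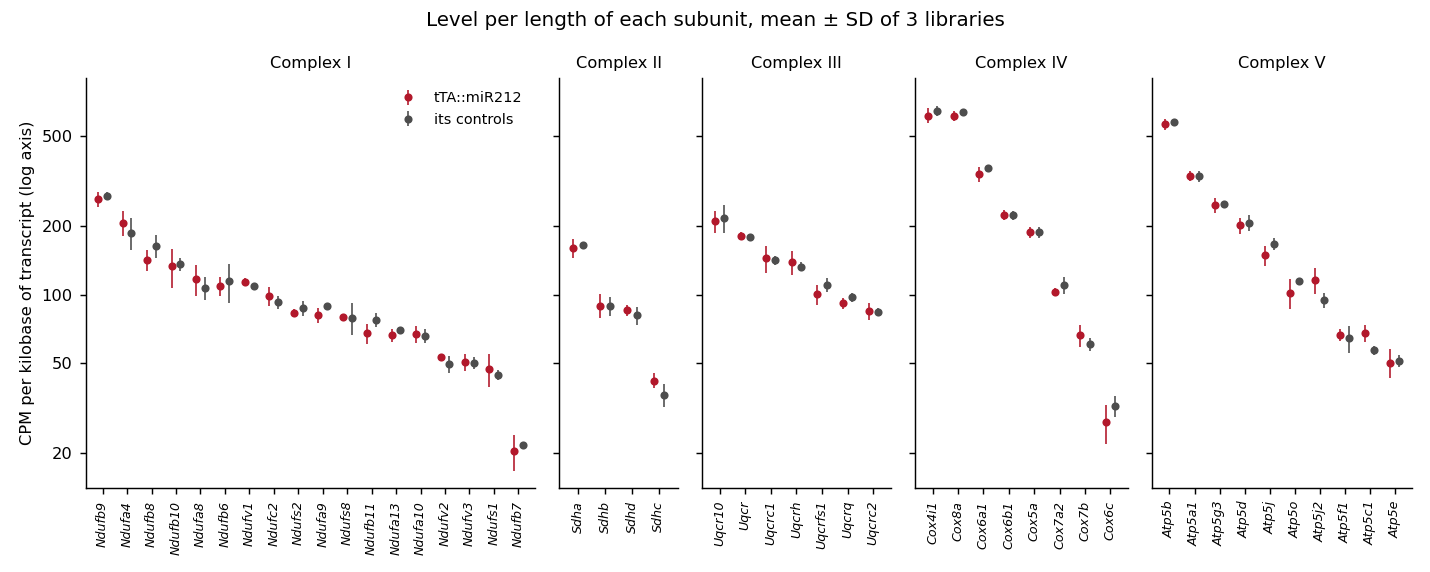
CPM per kilobase of transcript of the 47 subunits in tTA::miR212 mice (red, left of each pair) and their controls (grey, right), as mean and SD of 3 libraries, on a log axis, ordered within each complex. The levels span from 20.4 (Ndufb7) to 617 (Cox4i1) in tTA::miR212 mice, and the pairs lie close together.

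Other genes that serve the same pathway were read from lists. A list of 42 assembly factors, electron carriers, transporters and porins held no members, but included the subunit genes Cyc1 and Usmg5. Of the 42, 32 were measured in deletion mice (17 above 0 and 15 below, median log2 fold change 0.14). In tTA::miR132 mice 33 were measured (18 and 15, median 0.02) and in tTA::miR212 mice 9 (4 and 5, median -0.03). None was called by edgeR in any comparison, and 0, 3 and 1 had an unadjusted p under 0.05. In tTA::miR132 mice these were Cox10 and Surf1, assembly factors of complex IV, with both transgenic libraries below both controls (-1.21 and -0.89 on the log2 scale), and Sdhaf2, which inserts FAD into Sdha, with both above (1.49). With the miR-212 transgene it was Atpif1, the inhibitor of ATP synthase, with 134, 139 and 149 CPM in tTA::miR212 mice, against 163, 165 and 173 CPM in controls, all 3 below all 3 controls (-0.26). Of 19 genes of the citric acid cycle and pyruvate dehydrogenase, 16, 16 and 15 were measured and their medians were -0.01, -0.06 and 0.07. In deletion mice 7 of 16 were above 0, in tTA::miR132 mice 6 of 16 and in tTA::miR212 mice 12 of 15. The shares of all genes above 0 were 47.9%, 49.9% and 51.0%. Dlst had an unadjusted p under 0.05 in deletion mice (-0.85) and Pdha1 in tTA::miR212 mice (0.19), and no gene of the list was called. Of 18 regulators of mitochondrial biogenesis, 14, 13 and 5 were measured. In deletion mice 11 of 14 were above 0 (median 0.38), against 47.9% of all genes (median -0.03), and 0 of the 14 had an unadjusted p under 0.05. Above 0 were 6 of 13 in tTA::miR132 mice (median -0.11) and 4 of 5 in tTA::miR212 mice (median 0.03), against 49.9% and 51.0% of all genes. Again none was called in any comparison. The estrogen-related receptor gene Esrra had an unadjusted p under 0.05 with the miR-132 transgene, with 62.3 and 43.4 CPM in tTA::miR132 mice, against 18.7 and 19.8 CPM in controls.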

How the data were processed

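Hippocampal RNA of 6 groups (18 labelled samples) was sequenced by the authors, and 14 libraries in 3 tables were analysed. The authors deposited whole-number read counts per gene, not normalized, per the file headers. Per the submitters' processing notes and the design text, reads were aligned to mm9 with Bowtie 0.12.7. The design text also names Cufflinks 1.2, for transcript abundances. The sources used here do not say which tool made the deposited counts, nor the strandedness or gene filter. A further 14 columns of normalized values were not used. The authors' deposited q-values were only counted.

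The tables of the deletion and tTA::miR132 list RefSeq genes and none on chromosome X. The tTA::miR212 table lists transcripts, of which the one with the highest mean count per symbol was kept. Total counts per library set the precision, and counting error alone understates it. Each table was fitted in R 4.3.3 with edgeR 4.0.16 (quasi-likelihood, TMM, filterByExpr, robust, Benjamini-Hochberg adjustment at 0.05). The same code was first run on simulated counts. For the deletion and tTA::miR132 tables these were simulated with less spread between replicates than edgeR estimated. That run therefore does not show how the fits perform on these tables. DESeq2 1.42.0, limma-voom (limma 3.58.1), other scalings, no filter, a replicate block and leaving out each library were tried. Replicates are pools of animals per the design text, so p-values measure the spread between pools. CPM were taken on raw totals, and no test was made on sums over members.

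Members and gene lists were chosen with earlier results of these data known. Members named are those with an unadjusted p under 0.05, the smallest p on each side and the most counts in each complex, those at 0 in a library, and isoforms; others named were chosen after their values were seen. The main fit did not pair libraries by replicate number, and whether these numbers mark pairs was not settled.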

Additional observations from a re-analysis of the deposited data

How the results depend on the processing

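No member was called under DESeq2, limma-voom, RLE or no scaling, no filter or the replicate block in any comparison. Over all genes, DESeq2 called 5 in deletion mice and 39 in tTA::miR132 mice, and limma-voom called 2 in tTA::miR132 mice, against 0 by edgeR. With the replicate block edgeR called 1 gene in tTA::miR132 mice and 1 in tTA::miR212 mice. Over all genes, deviations of same-numbered libraries correlated at 0.02 (deletion), 0.01 (tTA::miR132) and -0.07 to 0.02 (tTA::miR212). With 2 libraries a group this is a single value with either sign, so it cannot settle whether same-numbered libraries vary together for the members. Library 1 was above library 2 for 58 of 78 members in deletion mice and for 56 of 78 in their controls. Leaving out single libraries gave 1 to 4527 genes and 0 to 30 members in deletion mice, 0 to 111 genes and 0 members in tTA::miR132 mice, and 0 to 18 genes and 0 members in tTA::miR212 mice. The cause was not tested. The median log2 fold change of members in deletion mice was -0.02 with limma-voom and -0.01 with the replicate block, against 0.05. It stayed between -0.05 and -0.00 in tTA::miR212 mice. Ratios of complex sums moved by more than the replicate spread in 3 of 25 alternatives in deletion mice, 1 of 25 in tTA::miR132 mice and 0 of 35 in tTA::miR212 mice. That spread came from the same few libraries, and leaving out a single library can hardly move a ratio past it. These counts therefore do not show that the ratios were stable. For complex I in deletion mice the ratio was 0.84 without deletion library 1 and 1.15 without deletion library 2. With 2 libraries a group and a median SE of 0.40 (deletion) and 0.32 (tTA::miR132), changes of single members of that size were not detectable. Far larger ones were not called either. In deletion mice Atp5g1 (log2 fold change 1.71) and Atp5h (-1.38) each had an adjusted p of 0.999 from edgeR.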

Other observations

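Among genes outside oxidative phosphorylation, the 54 cytosolic ribosomal proteins of the deletion table summed to 5681 and 3882 CPM in deletion mice, against 5006 and 4177 CPM in controls. In deletion mice library 1 was above library 2 by a median of 0.59 on the log2 scale (38 of 50 genes listed above 0 in every library), and control library 1 above control library 2 by 0.28 (35 of 50). The 71 mitochondrial ribosomal proteins summed to 3604 and 3219 CPM in deletion mice, against 3894 and 3116 CPM in controls, with 34 above 0, 37 below and a median log2 fold change of -0.07. In tTA::miR132 mice 43 of 70 mitochondrial ribosomal proteins were above 0 (median 0.17) and 26 of 54 cytosolic ones (median -0.01). None of these genes was called by edgeR, and the unadjusted p was under 0.05 for 1 gene of each list in tTA::miR132 mice and for 0 in deletion mice.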
